A study of Mus musculus with 15 samples.

Results

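The colony-stimulating factors (CSFs) are secreted proteins that drive the growth, maturation and survival of myeloid cells. M-CSF (Csf1) acts on monocytes and macrophages through the tyrosine kinase receptor encoded by Csf1r. GM-CSF (Csf2) acts through a complex of the ligand-binding α chain Csf2ra and the β chain Csf2rb, which also serves the IL-3 and IL-5 receptors and signals through JAK2 and STAT5, and the mouse carries a second β chain gene, Csf2rb2, whose product belongs to the IL-3 receptor. G-CSF (Csf3) acts through Csf3r, the receptor that drives neutrophil production and release. These 8 genes, 5 receptor genes and 3 ligand genes, were taken by name from the 55416 gene identifiers of the count tables. In blood the receptors sit on circulating myeloid cells, while the ligands are made largely by stromal, endothelial and activated immune cells.

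Whole blood from cheek bleeds was sequenced for 15 female C57BL/6 mice, with 1 library per mouse and 5 mice per group. In the early ND and late ND groups, αCTLA-4, an antibody that blocks an inhibitory receptor of T cells, had been given before an early or a late neck dissection (ND), the surgical removal of the cervical lymphatics. The untreated group received neither. For all groups alike, the labels describe tongue transplantation of 4MOSC1 cells, which derive from a carcinogen-induced oral carcinoma of the mouse, and 10 days of growth, and the accounts of the bleed differ on whether it came before or after the late operation, so late ND names the group only. No mice with αCTLA-4 and without surgery were analysed here, so against untreated mice αCTLA-4 and surgery cannot be told apart. Each library held 5862888 to 10796099 counts on genes in untreated mice, 5527108 to 7182346 in early ND mice and 7849602 to 13924361 in late ND mice. Alignments tallied as not unique in the counting made up 64.8% to 73.1%, 66.4% to 75.2% and 44.1% to 57.9% of all those tallied in these groups. This is a share of the tally and need not be the share of reads. Neither measure overlapped between early and late ND mice. Hemoglobin genes took 31.6% to 61.7% of counts in untreated mice, 38.3% to 64.1% in early ND mice and 14.9% to 29.3% in late ND mice. The 18S ribosomal gene Rn18s-rs5 had only 313 to 766 CPM, counts scaled by library total, in untreated mouse 2 and late ND mice 2 and 3, against at least 13402 in the other 12, so results were also computed without these 3.

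In the GRCm39 annotation, Csf3r (ENSMUSG00000028859) lies at chr4:125918262-125938236 on the plus strand and Csf2ra (ENSMUSG00000059326) at chr19:61212395-61216892 on the minus strand. The β chain genes are neighbours on chromosome 15, Csf2rb (ENSMUSG00000071713) at chr15:78209952-78238047 on the plus strand and Csf2rb2 (ENSMUSG00000071714) at chr15:78166707-78189921 on the minus strand. Of the ligands, Csf1 (ENSMUSG00000014599) lies at chr3:107648364-107667806 on the minus strand, Csf2 (ENSMUSG00000018916) at chr11:54138097-54140493 on the minus strand and Csf3 (ENSMUSG00000038067) at chr11:98592089-98594458 on the plus strand. The transcripts of Csf2rb and Csf2rb2 shared 892 identical stretches of 50 bases, 12.3% of those in Csf2rb and 18.4% of those in Csf2rb2. At 150 bases, the length of a read, they shared 165, 2.30% of those in Csf2rb and 3.34% of those in Csf2rb2. Reads that lie wholly in shared stretches could be split between them or lost. For Csf2 and Csf3, 18.6% and 44.2% of exon bases lay opposite other genes. The strand setting of the counting was not given in the sources used here, so reads of such partners could not be told apart.

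The promoters of 3 receptor genes and of Csf1, the 1 ligand gene detected in each mouse, are shown so that the regulatory sequence of receptor genes can be read beside that of a ligand gene. Each run holds the 250 bases before the RefSeq start site on the gene's own strand in GRCm38.p6, an older build than that of the gene positions, and capitals mark a PU.1-type motif. PU.1 (Spi1) is a transcription factor of myeloid cells. The motif was searched as GAGGAA on both strands, so that it can appear as TTCCTC. RefSeq promoters were matched for Csf3r at chr4:126024409-126024658 on the plus strand, Csf2ra at chr19:61228419-61228668 on the minus strand, Csf2rb2 at chr15:78305722-78305971 on the minus strand and Csf1 at chr3:107760470-107760719 on the minus strand.
Csf3r: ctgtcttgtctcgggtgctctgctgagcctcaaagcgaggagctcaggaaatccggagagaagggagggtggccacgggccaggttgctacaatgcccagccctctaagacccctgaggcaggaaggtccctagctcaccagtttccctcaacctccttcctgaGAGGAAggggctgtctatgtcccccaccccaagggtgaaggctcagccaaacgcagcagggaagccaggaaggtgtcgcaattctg
Csf2ra: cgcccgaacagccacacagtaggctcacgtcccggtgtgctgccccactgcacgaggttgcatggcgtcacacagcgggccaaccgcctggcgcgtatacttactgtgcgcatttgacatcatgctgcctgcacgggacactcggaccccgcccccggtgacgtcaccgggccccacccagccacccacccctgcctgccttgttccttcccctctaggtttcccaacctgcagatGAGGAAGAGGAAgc
Csf2rb2: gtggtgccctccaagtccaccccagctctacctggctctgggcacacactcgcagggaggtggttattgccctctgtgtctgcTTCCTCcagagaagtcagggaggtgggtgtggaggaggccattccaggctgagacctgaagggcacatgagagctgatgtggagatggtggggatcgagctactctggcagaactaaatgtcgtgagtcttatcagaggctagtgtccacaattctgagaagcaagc
Csf1: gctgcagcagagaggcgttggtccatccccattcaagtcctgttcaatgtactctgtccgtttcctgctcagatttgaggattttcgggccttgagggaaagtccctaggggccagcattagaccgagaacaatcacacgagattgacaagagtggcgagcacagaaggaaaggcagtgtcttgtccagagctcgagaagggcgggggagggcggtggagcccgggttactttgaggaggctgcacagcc
The letters matched in Csf3r at bases -86 to -81 from the start site, in Csf2rb2 at -167 to -162 and in Csf2ra at -14 to -9 and again at -8 to -3. Csf1 held no match, and 23.3% of the 32851 promoters in the table held at least 1. A C/EBP-type motif (TTGCNNAA, in 9.56% of promoters), a RUNX-type motif (TGTGGT, 14.05%), an AP-1-type motif (TGANTCA, 6.75%) and a TATA motif (TATAAA, 12.4%) had no match in these 4 windows, and no match overlapped another.

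The receptors covered a wide range of levels in blood, with Csf3r far above the rest. From here on, CPM were computed after TMM scaling, which scales libraries on the bulk of their genes, and levels of different genes were compared only as CPM per kilobase of exon. Over all 15 mice Csf3r averaged 276.8 ± 111.6 CPM per kilobase (SD, n = 15), Csf2ra 57.2 ± 22.6, Csf2rb 25.1 ± 11.3, Csf1r 14.3 ± 4.93, Csf2rb2 6.12 ± 2.90 and Csf1 3.60 ± 0.92. Csf3r lay above Csf2ra, Csf2ra above Csf2rb, Csf2rb above Csf1r and Csf1r above Csf2rb2 in 15 of 15 mice each (exact sign-flip permutation test of the log2 ratio, two-sided, p = 6.1e-05, the smallest that 15 mice allow, adjusted p = 8.54e-05). The step from Csf2rb2 to Csf1 was the narrowest, with the receptor above the ligand in 13 of 15 mice by 0.65 on the log2 scale (exact sign-flip permutation test, adjusted p = 0.00476). Among early ND mice alone these neighbours could not be ordered, at a mean log2 difference of 0.15 (exact sign-flip permutation test, adjusted p = 0.625), and 5 mice cannot go below p = 0.0625. Csf3r alone made up 68.2% to 79.4% of the summed receptor level per kilobase in every library, and Csf2 and Csf3 stood at the limit of detection.

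Between late and early ND mice, 3 of the 5 receptors were higher in late ND mice, the other two had the same direction without passing, and Csf1 was not separable. Of the 6 members tested, 3 receptors, Csf2ra, Csf2rb and Csf1r, were called higher and none lower, where 2.5% of the 13315 genes tested were called higher and 2.48% lower (edgeR quasi-likelihood test, Benjamini-Hochberg adjusted p under 0.05). The median log2 fold change of the 5 receptors was 0.94, beside 0.014 over all genes tested. In late against untreated mice 1 receptor, Csf1r, was called higher, where 0.989% of 13547 genes were called higher and 2.01% lower. In early ND against untreated mice no member was called, and 0% of 12151 genes were called in either direction by edgeR or by DESeq2, with 256 genes higher and 283 lower at an unadjusted p under 0.05. No member stood apart between these groups without overlap, as 0.272% of genes did in each direction. The 3 comparisons share mice and are not independent of each other. In whole blood, fewer cells of a type and less RNA per cell cannot be told apart.

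**Figure D1:**
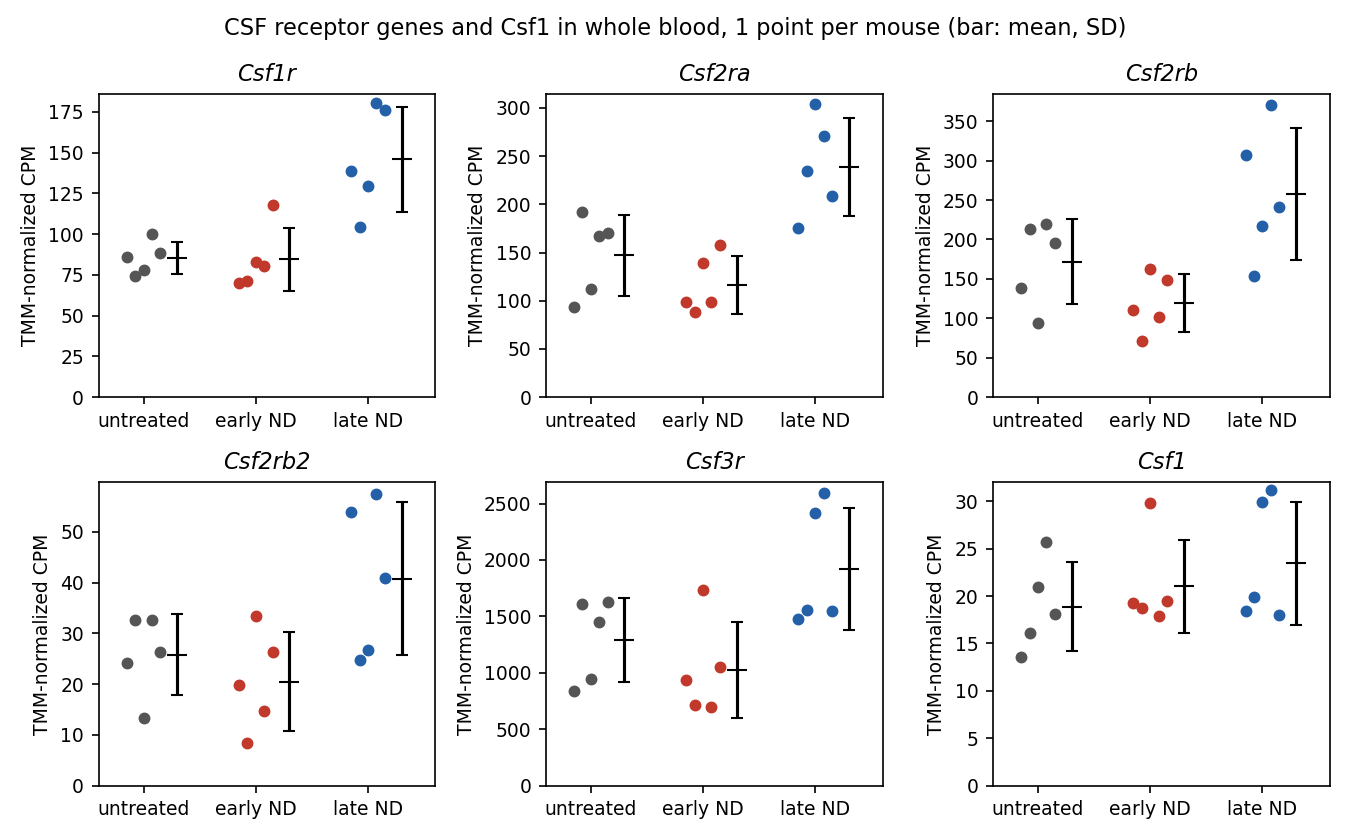
TMM-normalized CPM (linear axes from 0) of the 5 receptor genes and Csf1, 1 point per mouse in the untreated, early ND and late ND groups, with the mean and SD of each group at the right of its points. All 5 late ND points lie above all early ND points for Csf2ra, and above all untreated points for Csf1r.

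Csf2ra encodes the chain that binds GM-CSF. Its levels in mice 1 to 5 were 175.3, 234.2, 304.0, 270.6 and 208.2 CPM in the late ND group. They were 98.6, 88.1, 139.2, 98.5 and 157.9 CPM in the early ND group and 93.2, 192.4, 111.8, 167.2 and 170.5 CPM in the untreated group. Every late ND mouse stood above every early ND mouse, a separation that 4.84% of all genes tested showed in this direction and 2.2% in the other, and 4 of 5 stood above every untreated mouse. The log2 fold change was 1.00 ± 0.20 (SE) against early ND mice (edgeR quasi-likelihood test, adjusted p = 0.0225). Against untreated mice it was 0.65 with an adjusted p of 0.132 in edgeR, while DESeq2 called it against both groups (0.97 against early ND mice, adjusted p = 0.000261, and 0.64 against untreated mice, adjusted p = 0.0496). In edgeR, early ND against untreated mice gave -0.33 with an adjusted p of 0.938.

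Csf2rb, the β chain through which the GM-CSF, IL-3 and IL-5 receptors signal, was also called higher in late than in early ND mice. Late ND mice 1 to 5 had 307.1, 153.8, 217.1, 370.1 and 241.1 CPM. The early ND values were 110.0, 71.4, 162.3, 102.0 and 148.7 CPM, and the untreated values 137.9, 213.2, 94.0, 219.6 and 195.0 CPM. Late ND mouse 2, 1 of the libraries poor in 18S sequence, fell inside the early ND range and the other 4 lay above it. Csf2rb rose by a log2 fold change of 1.08 ± 0.26 (SE) in late against early ND mice (edgeR quasi-likelihood test, adjusted p = 0.0392). Late ND against untreated mice gave 0.54 (edgeR, adjusted p = 0.328) and early ND against untreated mice -0.53 (edgeR, adjusted p = 0.938).

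The second β chain gene, Csf2rb2, had the same direction as Csf2rb without passing the test. Its counts were much lower, 43 to 775 per library. It stood at 53.9, 24.7, 26.8, 57.4 and 41.0 CPM in late ND mice 1 to 5, at 19.8, 8.33, 33.3, 14.8 and 26.3 CPM in early ND mice and at 24.1, 32.6, 13.3, 32.6 and 26.4 CPM in untreated mice. The late ND mice were split, with mice 1, 4 and 5 above every other mouse of the study and mice 2 and 3, both poor in 18S sequence, inside the ranges of the other groups. The log2 fold change of late against early ND mice was 0.94 ± 0.34 (SE) (edgeR quasi-likelihood test, adjusted p = 0.117), that against untreated mice 0.59 (edgeR, adjusted p = 0.301). Within a library, Csf2rb2 relative to Csf2rb per kilobase had medians of 0.228 in untreated, 0.272 in early ND and 0.247 in late ND mice. The ranges were 0.209 to 0.270, 0.181 to 0.316 and 0.190 to 0.270. No difference between groups was detected (exact permutation tests of the log2 ratio, each adjusted p = 0.765).

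Csf3r, the G-CSF receptor, was the most abundant member, with 2028 to 55110 counts per library. Late ND mice 1 to 5 had 1480, 1554, 2418, 2591 and 1549 CPM. Early ND mice had 932.7, 710.4, 1731, 696.3 and 1049 CPM, and untreated mice 842.9, 1609, 949.0, 1447 and 1623 CPM. All late ND mice lay above the early ND median, but early ND mouse 3 exceeded 3 of them. The log2 fold change was 0.87 ± 0.29 (SE) against early ND mice and did not pass after adjustment (edgeR quasi-likelihood test, adjusted p = 0.0936). Without early ND mouse 3 it was 1.15 and passed (edgeR, adjusted p = 0.0187), as did Csf2rb2 at 1.19 (edgeR, adjusted p = 0.0398), while over the 10 fits that each left out 1 mouse the adjusted p of Csf3r ran from 0.0187 to 0.229 and that of Csf2rb2 from 0.0398 to 0.280. With DESeq2, Csf3r passed at an adjusted p of 0.0238.

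Csf1r, the M-CSF receptor and a gene of the monocyte and macrophage lineage (ENSMUSG00000024621, at chr18:61229714-61266535 on the plus strand), was the 1 member that edgeR called against both other groups. Its levels in late ND mice 1 to 5 were 138.7, 104.4, 129.4, 180.4 and 176.1 CPM. In early ND mice they were 69.9, 71.1, 83.2, 80.7 and 117.8 CPM and in untreated mice 86.2, 74.5, 77.9, 100.1 and 88.2 CPM. Every late ND mouse lay above every untreated mouse, as 3.57% of the genes tested did (2.27% the other way), and 4 of 5 lay above every early ND mouse. The log2 fold change was 0.75 ± 0.19 (SE) against early ND mice (edgeR quasi-likelihood test, adjusted p = 0.0425) and 0.73 ± 0.16 (SE) against untreated mice (edgeR, adjusted p = 0.0322). Early ND and untreated mice differed by -0.0061 ± 0.16 (SE) in edgeR. Hmgxb3, whose exons lie opposite 19.8% of the exon bases of Csf1r, averaged 13.96, 14.08 and 13.51 CPM in untreated, early ND and late ND mice.

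**Figure D2:**
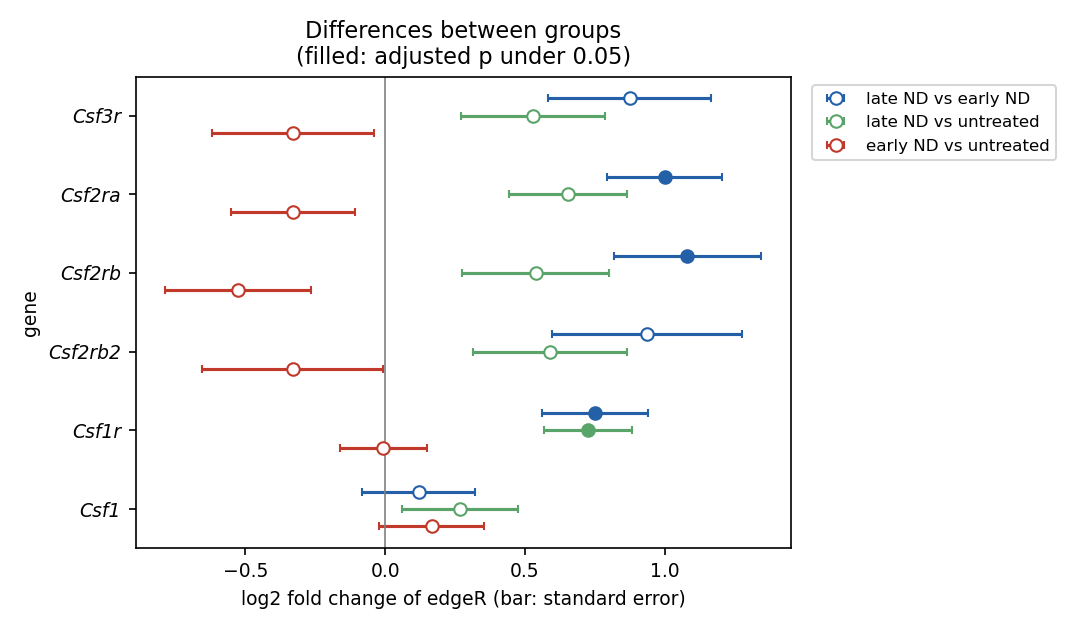
Log2 fold change of edgeR with its standard error for the 6 members tested in late ND against early ND, late ND against untreated and early ND against untreated mice, with filled symbols where the adjusted p is under 0.05. The receptors lie between 0.75 and 1.08 in late against early ND mice, and Csf1 lies at 0.12.

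These calls were close to the threshold. With the 3 libraries poor in 18S sequence left out, the fold changes of Csf2ra, Csf2rb and Csf1r in late against early ND mice were 0.86, 1.32 and 0.91, with adjusted p-values of 0.0693, 0.0509 and 0.0520, and that of Csf1r against untreated mice was 0.85 (edgeR, adjusted p = 0.107). With the hemoglobin share as a covariate, the late against early fold changes were 0.84, 1.27 and 1.00 (edgeR, adjusted p = 0.626, 0.582 and 0.576). This share did not overlap between late and early ND mice, so that fit can hardly separate it from the group. It called 0 of all 13315 genes higher, and so cannot decide on these calls. The late against early call of Csf2ra was lost without early ND mouse 4 or late ND mouse 3 or 4, and those of Csf2rb and Csf1r without early ND mouse 1, 2 or 4 or late ND mouse 1, 3, 4 or 5. Over these fits the adjusted p ran from 0.0156 to 0.0680 for Csf2ra, from 0.0183 to 0.109 for Csf2rb and from 0.0242 to 0.127 for Csf1r. The call of Csf1r against untreated mice remained only without untreated mouse 4 or 5 (edgeR, adjusted p from 0.0317 to 0.0958). With DESeq2 size factors in place of TMM in edgeR, the late against early call of Csf1r was lost (0.73, adjusted p = 0.0555) and those of Csf2ra and Csf2rb remained. The direction was the same in every one of these fits.

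Of the ligands, Csf1 was low but present in each mouse, with 35 to 681 counts. Late ND mice 1 to 5 had 18.4, 19.9, 29.9, 31.2 and 17.98 CPM. Early ND mice had 19.3, 18.8, 29.8, 17.9 and 19.5 CPM and untreated mice 13.6, 16.1, 21.0, 25.7 and 18.1 CPM. The groups overlapped almost wholly. Late against early ND mice differed by a log2 fold change of 0.12 ± 0.20 (SE) (edgeR quasi-likelihood test, adjusted p = 0.772), late ND against untreated mice by 0.27 (edgeR, adjusted p = 0.579) and early ND against untreated mice by 0.17 (edgeR, adjusted p = 0.947).

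Csf2 and Csf3, the genes of GM-CSF and G-CSF, were close to undetected and fell under the filter on low counts, so they were not tested. Csf2 had 4 counts each in late ND mice 2 and 3, 1 each in late ND mouse 1 and early ND mouse 5, and 0 in the other 11. Csf3 had 2 counts in early ND mouse 2, 1 in late ND mouse 5 and 0 in the other 13. A count of 0 allows up to 3 counts, which is 0.196 to 1.17 CPM across the libraries at 0 for Csf2 and 0.127 to 1.17 CPM for Csf3. No difference between groups, nor an order between these genes, was detectable at this depth. These floors, like all count values here, cover counting error only.

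The balance of receptors to ligands was read within each library, where TMM scaling cancels out. It still depends on depth, because 0.5 counts were added to each member, the nearly undetected Csf2 and Csf3 included. This addition lowers the ratio more where ligand counts are few. Csf1 had 35 to 230 counts in untreated, 52 to 218 in early ND and 201 to 681 in late ND mice. Untreated and early ND ratios were therefore mostly lowered more than late ND ratios. The summed receptor level per kilobase, divided by the summed ligand level, was 126.4, 116.6, 118.0, 127.9 and 138.8 in late ND mice 1 to 5. It was 71.8, 52.9, 82.1, 58.3 and 79.3 in early ND mice and 85.5, 151.9, 64.9, 86.0 and 129.6 in untreated mice. The late and early ND mice did not overlap, and the untreated mice spanned both. Mostly 1 receptor and 1 ligand set this ratio. Csf3r made up 68.2% to 79.4% of the receptor sum, and Csf1 had 3281 counts over all libraries beside 10 for Csf2 and 3 for Csf3. The log2 ratio was 6.97 ± 0.10 (SD, n = 5) in late and 6.09 ± 0.28 (SD, n = 5) in early ND mice, a difference of 0.88 (two-sided exact permutation test, p = 0.00794, the smallest that 5 mice against 5 allow). After adjustment over the 15 ratio comparisons made, it did not pass (adjusted p = 0.119, exact permutation test). A lone ratio at the smallest possible p cannot pass this adjustment, so the adjusted value does not show that the groups were alike.

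**Figure D3:**
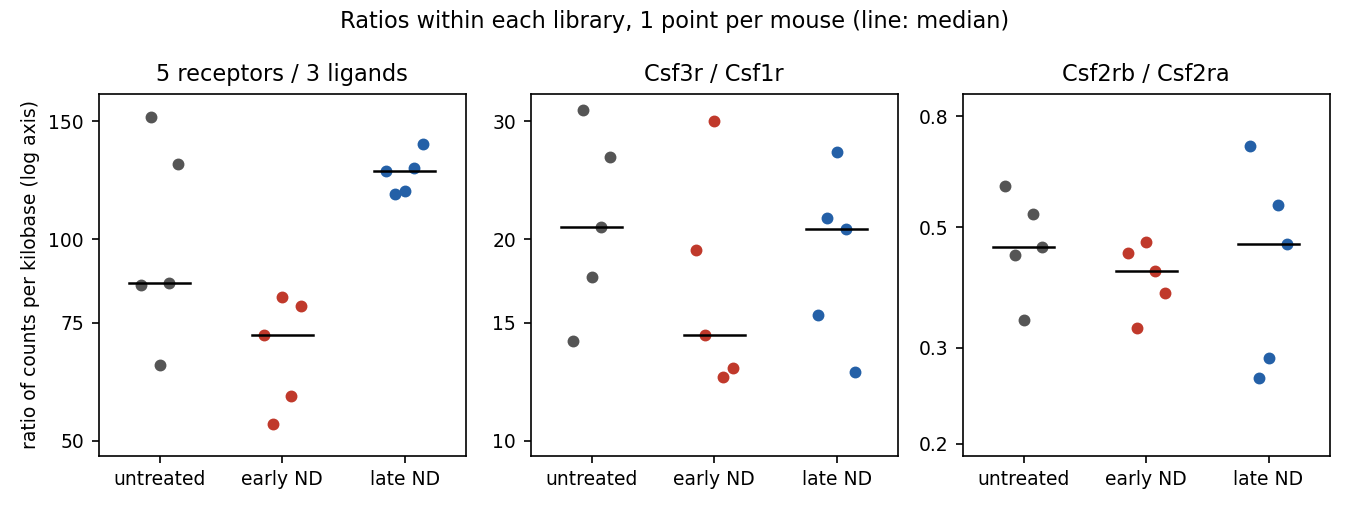
Ratios of levels per kilobase within each library (log axes), 1 point per mouse with the group median as a line, for the 5 receptors over the 3 ligands, Csf3r over Csf1r and Csf2rb over Csf2ra. The late ND mice lie between 117 and 139 receptor units per ligand unit and the early ND mice between 52.9 and 82.1, while the other ratios overlap between groups.

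The mix of receptors was compared within each library as well. Csf3r relative to Csf1r had medians of 20.8 in untreated, 14.4 in early ND and 20.7 in late ND mice, and late and early ND mice differed by 0.16 on the log2 scale (exact permutation test, p = 0.587, adjusted p = 0.765). Csf2rb relative to Csf2ra, the signalling to the ligand-binding chain, ran from 0.264 to 0.704 in late ND mice, a wider range than the 0.326 to 0.468 of early ND mice, and the group means differed by 0.068 on the log2 scale (exact permutation test, p = 0.833, adjusted p = 0.833). The lowest of these ratios, 0.264 and 0.287, belonged to late ND mice 2 and 3, the late ND libraries poor in 18S sequence, and the third such library, untreated 2, had 0.445. Csf1r relative to Csf1 was higher by 0.65 in late than in early ND mice on the log2 scale (exact permutation test, p = 0.0635, adjusted p = 0.397). A p above the threshold with 5 mice a group does not show that these ratios were equal.

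The receptors were also set against markers of the cells that carry them. Neutrophil markers (10 genes, among them S100a8, S100a9 and Ly6g) summed to 4480 to 12688 CPM in late ND, 1603 to 5686 in early ND and 3482 to 10298 in untreated mice, and monocyte markers (9 genes, among them Ly6c2, Ccr2 and Cx3cr1) to 1011 to 1531, 577.1 to 1273 and 551.7 to 978.2 CPM. The marker lists hold no member, and each of their genes had counts in each group. A score, the mean log2 CPM of a list, was 7.38 ± 0.60 (SD, n = 5) in late and 6.20 ± 0.78 (SD, n = 5) in early ND mice for neutrophils, and 6.33 ± 0.22 (SD, n = 5) and 5.81 ± 0.46 (SD, n = 5) for monocytes. In untreated mice the scores were 7.26 ± 0.81 (SD, n = 5) and 5.62 ± 0.29 (SD, n = 5). Both scores were thus higher in late than in early ND mice, as the receptors were, but not every gene of the lists was. Mean CPM was lower in late than in early ND mice for the monocyte markers Ace (31.4 against 41.4) and Adgre4 (24.4 against 25.8). It was also lower for the neutrophil marker Camp (2.46 against 3.08), and higher for the other genes of both lists, among them Treml4 (17.5 against 15.4) and Fn1 (207.2 against 64.5). In untreated mice, the neutrophil score lay close to that of late ND mice and the monocyte score below that of early ND mice. The scores were not tested between groups, and their part in the receptors' differences was not tested.

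Across the 15 mice the β chain genes followed the neutrophil score most closely. For Csf2rb, Pearson's r was 0.90 (permutation test with 100000 resamples, adjusted p = 0.00012 over 12 relations) and Spearman's rho 0.86 (adjusted p = 0.00156). For Csf2rb2, r was 0.89 (permutation test, adjusted p = 0.00012) and rho 0.82 (adjusted p = 0.00258). With the values centred within groups, r was 0.92 for each, and without the 2 mice farthest from the median score 0.85 and 0.81. In the 12 libraries rich in 18S sequence it was 0.91 for both. Csf3r and Csf2ra followed this score less tightly, with r of 0.73 (permutation test, adjusted p = 0.00636) and 0.63 (adjusted p = 0.0309) and rho of 0.55 for both (adjusted p = 0.0756). Without the 2 farthest mice r was 0.55 and 0.44, and within groups 0.65 and 0.50. With the monocyte score, r was 0.50 for Csf2ra, 0.52 for Csf2rb, 0.49 for Csf2rb2 and 0.28 for Csf3r (permutation tests, adjusted p from 0.0825 to 0.372). Without the 2 mice farthest from the median monocyte score, these were 0.63, 0.68, 0.71 and 0.50. Within groups they were 0.078, 0.30, 0.27 and -0.20. Csf1r followed the monocyte score, with r of 0.84 (permutation test, adjusted p = 0.0002), rho of 0.73 (adjusted p = 0.0112), 0.84 without the 2 farthest mice and 0.71 within groups, where it was 0.48 without the 2 farthest. It also varied with the neutrophil score, at r of 0.57 (permutation test, adjusted p = 0.0535) over all mice and 0.66 within groups without the 2 farthest. In the libraries rich in 18S sequence, rho of Csf1r was 0.76 with the neutrophil score (permutation test, adjusted p = 0.0254) and 0.62 with the monocyte score (adjusted p = 0.0723), while r was 0.68 and 0.83. For Csf1 no relation passed with either score (r of 0.26 for neutrophils and 0.21 for monocytes, permutation tests, adjusted p = 0.381 and 0.455).

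**Figure D4:**
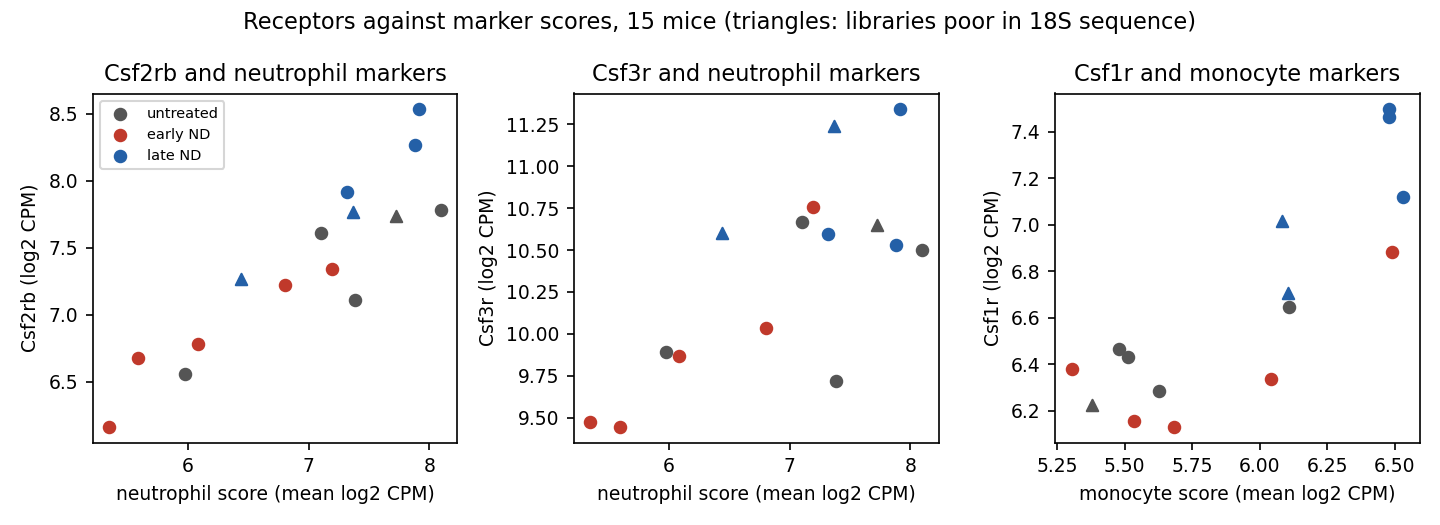
Log2 CPM of Csf2rb and Csf3r against the neutrophil marker score and of Csf1r against the monocyte marker score (mean log2 CPM of each list), 1 point per mouse coloured by group, with triangles for the 3 libraries poor in 18S sequence. Csf2rb follows the neutrophil score at r of 0.90 and Csf3r at 0.73, and Csf1r follows the monocyte score at 0.84.

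Of the other marker lists, the dendritic cell list (6 genes) summed to 16.0 to 21.9 CPM in late ND against 9.61 to 19.7 CPM in early ND and 9.12 to 15.9 CPM in untreated mice. Its genes did not move together. Mean CPM was higher in late than in early ND mice for Cd209a (7.37 against 2.97), Batf3 (3.14 against 1.59) and Siglech (2.08 against 1.23). It was lower for Xcr1 (1.60 against 2.44) and Zbtb46 (0.95 against 1.39), and Clec9a had 3.91 against 3.88. Eosinophil markers summed to 6.60 to 29.2 CPM and basophil markers to 10.3 to 26.5 CPM over all groups. B cell markers summed to 354.5 to 1104 CPM, T cell markers to 147.8 to 326.5 CPM, NK cell markers to 55.0 to 124.5 CPM and platelet markers to 1455 to 3286 CPM, with overlapping groups. Erythroid genes moved as the hemoglobin share did. Skin genes (keratins, Scd3 and Elovl3) and stromal genes, which a cheek bleed can carry, summed to 29.1 to 952.4 CPM and 4.89 to 47.8 CPM. Most of the skin sum was Scd3 and Elovl3, with group means of 88.4 to 183.1 and 46.9 to 82.9 CPM. The keratin genes had group means of 2.58 to 6.54 CPM for Krt79 and at most 0.801 CPM for Krt5, Krt14 and Krt10.

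The genes most alike to each member over the 15 libraries were named by Pearson's r of log2 CPM among 11557 genes, as a description. For Csf3r they included Cd300lb (0.97) and Ip6k1 (0.97), and for Csf2rb they were Arid3a (0.98), Xdh (0.97) and Sbno2 (0.97). Csf2rb itself, at 0.96, was among the 3 genes most alike to Csf2rb2, with Atp11a (0.96) and Sec14l1 (0.96). Csf2ra was most like Atp6v0b (0.97), Slc66a2 (0.96) and the myeloid kinase gene Fes (0.95). Csf1r was most like the macrophage gene Cd68 (0.96), Tnfrsf1b (0.96) and Nlrp1a (0.95). Csf1 had no close match, at 0.85 for Fnip1, 0.84 for Ccdc186 and 0.81 for Arid4a. Among the members, Csf2ra varied with Csf3r (r of 0.92) more than with Csf2rb (0.81), the chain it pairs with.

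Around the members, 2 other receptor genes rose in late against early ND mice. Of 12 further receptors and ligands of the hematopoietic growth factors, 7 were tested and 2 were called higher, none lower. Over all genes tested, 2.5% were called higher and 2.48% lower. Flt3, a receptor tyrosine kinase of progenitors and dendritic cells, was at 8.88 to 13.2 CPM in late ND, 2.40 to 7.19 CPM in early ND and 2.69 to 5.83 CPM in untreated mice. Its log2 fold change was 0.94 ± 0.23 (SE) against early ND (edgeR quasi-likelihood test, adjusted p = 0.0413) and 1.28 ± 0.20 (SE) against untreated mice (edgeR, adjusted p = 0.0242). Il3ra, the IL-3 binding chain that pairs with the β chains, was higher by 0.76 ± 0.20 (SE) in late than in early ND mice (edgeR, adjusted p = 0.0476), at 6.71 to 10.96 against 3.55 to 6.87 CPM. Its ligand gene Il3, and Il5, Il34, Kitl and Thpo, were under the filter. The adjusted p of Il3ra was 0.0521 to 0.102 in the 10 fits that each left out 1 mouse, so that its call needs all of them, and 0.0530 under a replicate block. The late against early call of Flt3 was lost without early ND mouse 1 or 4 or late ND mouse 1, 3, 4 or 5 (edgeR, adjusted p up to 0.0896), and its call against untreated mice without untreated mouse 3 or any late ND mouse (adjusted p up to 0.0712).

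Downstream of the receptors, no gene passed in edgeR, while DESeq2 called 5 signalling genes, 3 inhibitors and 1 STAT target higher, where it called 5.78% of all genes higher and 5.03% lower. Of 19 kinase, STAT and adaptor genes tested in late against early ND mice, 0 were called by edgeR, with 13 higher and 0 lower at an unadjusted p under 0.05 and a median log2 fold change of 0.33. Over all genes tested in this comparison, 14.4% were higher and 9.33% lower at that unadjusted threshold. Stat3, a carrier of the Csf3r signal, stood nearest at 0.69 ± 0.19 (SE) (edgeR, adjusted p = 0.0516). Among 10 inhibitors 0 passed, with 4 higher and 1 lower unadjusted and a median of 0.063. Of these, Cbl, a ubiquitin ligase that marks active Csf1r for removal, had 0.46 (edgeR, adjusted p = 0.0520) and Socs3, the feedback inhibitor of Csf3r, 1.01 (edgeR, adjusted p = 0.0742). Among 8 STAT targets and survival genes 0 passed, with 4 higher and 1 lower unadjusted and a median of 0.42, and the smallest p belonged to Osm (0.97, edgeR adjusted p = 0.0965) and Junb (0.80, edgeR adjusted p = 0.102).

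Against untreated mice, the signalling list had 0 called by edgeR with 8 higher and 0 lower at an unadjusted p under 0.05, where 8.69% of all genes were higher and 8.28% lower. Tyk2, a kinase gene of the JAK family, had 0.37 (edgeR, adjusted p = 0.122). Cbl had 0.47 (edgeR, adjusted p = 0.0697), Socs1 -0.61 (edgeR, adjusted p = 0.190) and Bcl2l1 -0.84 (edgeR, adjusted p = 0.0818), the last a survival gene that red cell precursors use. Of the signalling, inhibitor and STAT target lists, DESeq2 called 1 signalling gene and Cbl higher and Bcl2l1 lower in this comparison, where it called 2.02% of all genes higher and 3.94% lower. In early ND against untreated mice no gene of these 4 lists was called, and those at an unadjusted p under 0.05 were Osm at -0.85, Socs3 at -0.77, Il5ra at 0.75, Junb at -0.56 and Kit at -1.39 (edgeR, each adjusted p = 0.938). At that threshold 2.11% of all genes were higher and 2.33% lower.

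**Figure D5:**
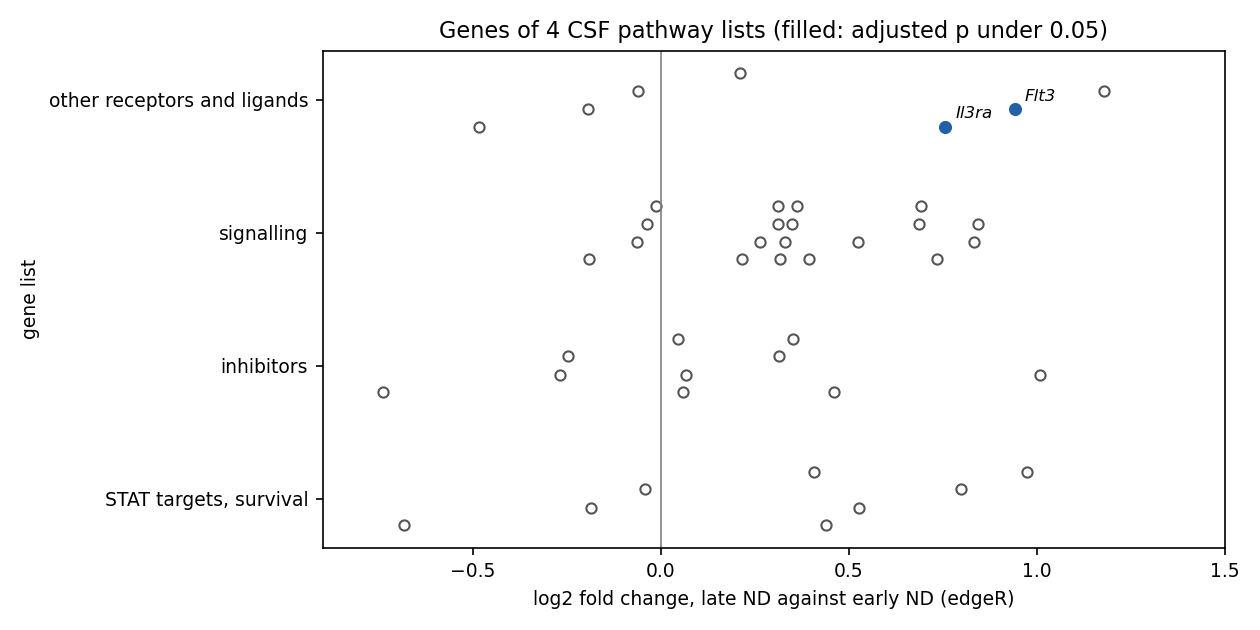
Log2 fold change of edgeR in late ND against early ND mice for each tested gene of 4 pathway lists, with filled points where the adjusted p is under 0.05. Flt3 at 0.94 and Il3ra at 0.76 passed, and the points of the signalling list lie mostly to the right of 0 without passing.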

How the data were processed

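Whole blood RNA was sequenced as 150-base read pairs. Per the labels, the authors aligned reads with STAR 2.7.9, sorted them with SAMtools 1.7 and counted them with HTSeq 0.13.5. The methods name the GRCm39 genome, and the labels also list mm10. The deposited values are raw counts per gene, without normalization. Gene names and positions came from GENCODE M39, matched for 54749 of 55416 identifiers, and 144 of the 145 genes listed were found. Groups and replicate numbers came from the sample titles. Each pair of groups was compared with edgeR 4.0.16 (TMM, filterByExpr, quasi-likelihood test, Benjamini-Hochberg adjustment over all genes tested, threshold 0.05) in R 4.3.3, with DESeq2 1.42.0 as an alternative. The standard error was taken as the fold change over the root of F. Ratios used a prior of 0.5 counts and levels on the log2 scale a prior of 2. Exact permutation tests were two-sided (SciPy 1.17.1), and the tests were checked on simulated data. For edgeR, the simulated libraries had the same composition apart from the genes set to differ. That check therefore does not cover scaling between groups with unlike hemoglobin shares. Each library came from 1 mouse, so p-values measure the spread between mice. Depth of 5527108 to 13924361 counts per library puts 3 counts at 0.127 to 1.17 CPM.

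Members and gene lists were chosen with earlier results of these data known. Named genes were all members, up to 4 called genes per pathway list and direction or else the 2 with the smallest p, and the 3 genes most alike to each member. Alternatives covered scaling, filters, covariates, the tool, the libraries poor in 18S sequence and each mouse left out. Correlations centred within groups in the libraries rich in 18S sequence were added after seeing the data. Protein sequences were not used here. Some genes that the rule names are not reported here.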

Additional observations from a re-analysis of the deposited data

Results flagged for a closer look

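Over the members' CPM and their ratios, 34 groups of 5 mice were checked for a mouse far from the others by Dixon's criterion, which chance meets in about 1 group in 20, and 2 met it. For Csf1r, early ND mouse 5 stood at 118 CPM, above the 69.9 to 83.2 CPM of the other early ND mice and inside the late ND range. Its monocyte marker score was the highest of the early ND group. For Csf1, early ND mouse 3 stood at 29.8 CPM, above the 17.9 to 19.5 CPM of the other early ND mice. The same mouse had the highest Csf3r, Csf2rb and Csf2rb2 of its group. The part of cell composition in either value was not tested.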

How the results depend on the processing

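TMM moved all genes onto a common scale: with library totals instead, log2 fold changes over all genes had a median of 0.86 in late against early ND mice and 0.91 against untreated mice, and 6 members were called in each. In late against early ND mice, genes called higher numbered 333 (201 with DESeq2 size factors, 8923 with library totals, 769 with DESeq2, 886 without a filter, 0 with the hemoglobin share as a covariate, 4 in libraries rich in 18S sequence, 36 to 1057 with 1 mouse left out) and lower 330 (137 with totals, 670 with DESeq2, 0 with the covariate, 0 in libraries rich in 18S sequence, 106 to 553 with 1 mouse left out). Members called numbered 3 (2 with DESeq2 size factors, 4 with DESeq2, 5 without a filter, 0 with the covariate, 0 in libraries rich in 18S sequence, 0 to 5 with 1 mouse left out). Against untreated mice the counts were 134 higher (7484 with totals, 274 with DESeq2, 0 with the covariate, 0 in libraries rich in 18S sequence, 0 to 184 with 1 mouse left out), 272 lower (90, 534, 0 and 0, and 0 to 409) and 1 member (2 with DESeq2, 0 with the covariate, 0 in libraries rich in 18S sequence, 0 to 1). Early ND against untreated mice gave 1 higher and 2 lower with totals. The hemoglobin share of late ND mice overlapped with neither other group, so fits with this covariate can hardly separate it from the group. The cause of these moves was not tested.

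Under a replicate block, 230 genes rose in late ND against untreated mice, and the same 3 and 1 members were called. Same-numbered mice correlated between -0.30 and 0.57 in their deviations. In late ND against untreated mice every such correlation was positive, at 0.030 to 0.57, and 6 of 10 mice matched their own number best. That held for 2 of 10 mice in late against early ND and 0 of 10 in early ND against untreated mice. The main tests did not pair mice by number, and whether the numbers mark a shared batch was not tested. Values near 0 changed sign: Csf1r in early ND against untreated mice (0.017 with totals, -0.16 to 0.057 with 1 mouse left out), Csf1 in late against early ND mice (-0.00038 with the covariate, -0.028 to 0.29 with 1 mouse left out), and in libraries rich in 18S sequence the log2 ratios of Csf3r to Csf1r (-0.0743) and Csf2rb2 to Csf2rb (0.037) in late against early ND and of Csf2rb to Csf2ra in late ND against untreated mice (0.27). With 1 mouse left out, Csf2rb to Csf2ra ran from -0.11 to 0.24 and from -0.32 to 0.037, and Csf2rb2 to Csf2rb from -0.18 to 0.025. Within groups, r with the monocyte score was -0.20 for Csf3r and -0.063 for Csf1, and -0.13 and -0.054 in libraries rich in 18S sequence, a setting chosen after seeing the data. Low counts limit Csf2 and Csf3.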
